A study of Mus musculus with 4 samples.

Results

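The neuregulins, the other epidermal growth factor (EGF) family ligands and the ErbB receptors form the growth factor system described here, by cell type and library. It comprised 10 genes of the 32932 gene identifiers listed in at least 1 of the 4 count matrices. Of these, 6 encode ligands (Nrg1, Nrg2, Nrg4, Areg, Ereg and Hbegf) and 4 encode receptors (Egfr, Erbb2, Erbb3 and Erbb4). Members were taken as every row whose gene symbol equalled 1 of these names, and all 10 were found in all 4 matrices. The list was drawn up because Nrg1 stood out in the library labelled preSC_CracdKO, so the values of the allograft comparison describe what the choice was based on and support nothing beyond it.

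Single cells of mouse small cell lung cancer, a tumour of neuroendocrine character, were profiled by droplet 3-prime RNA sequencing, in which unique molecular identifiers (UMIs) count captured RNA molecules. RPR2 and CRPR2 were lung tumours of a mouse model made by gene knockout, and the labels spell out neither the alleles nor what drives their deletion, nor age or sex. The libraries labelled preSC_WT and preSC_CracdKO came from allografts of preSC, a mouse cell line, with the genotypes WT and CracdKO, and the labels name neither the host animals nor the number of clones behind the knockout. Cracd is the actin regulator gene listed in the matrices as C530008M17Rik. There was 1 library for every group, which leaves variation among animals unknown, and no p-values are given. Every interval printed is an exact 95% interval that covers counting error only. Where a count was 0, the limit given beside it is instead the level or share that 3 counts would make.

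Cracd RNA went against the labels of the allografts. Its level in tumour cells was 6.45 CPM (a gene's UMIs per 1000000 UMIs of the class) in the library labelled preSC_WT and 85.1 CPM in the library labelled preSC_CracdKO, 13.2-fold higher where the gene was labelled as knocked out. In the lung tumours it was 31.6 CPM in RPR2 and 23.6 CPM in CRPR2. The 3-prime counts do not show whether a transcript is intact, and the allografts are therefore named by their labels throughout. Since each label rests on 1 library, no allograft value could be given without the library in doubt. Between 36 and 79 cell barcodes were shared by any pair of libraries.

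ErbB receptors are tyrosine kinases of the cell surface that dimerise when an extracellular ligand binds. Neuregulins bind ErbB3 and ErbB4, whereas amphiregulin (Areg) binds EGFR, and epiregulin (Ereg) and heparin-binding EGF (Hbegf) bind EGFR and ErbB4. ErbB2 has no known ligand of its own and serves as the partner of the other receptors, and ErbB3 has little kinase activity and depends on its partners. The receptors signal through adaptor proteins to the RAS-ERK and PI3K-AKT pathways, and ERK output in turn induces inhibitors such as the DUSP phosphatases and Sprouty proteins.

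Tumour cells, the neuroendocrine class, numbered 3056 in RPR2, 6595 in CRPR2, 12661 in the library labelled preSC_WT and 14015 in the library labelled preSC_CracdKO. In each library 19 of the 20 neuroendocrine markers, among them Chga and Calca, reached 20 CPM in this class. The median tumour cell held 6052 UMIs in RPR2, 3366 in CRPR2, 4902 in the library labelled preSC_WT and 5949 in the library labelled preSC_CracdKO. The other classes are called by their leading markers with the ending -like, since no annotation by the authors was used.

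Nrg1, the neuregulin located on chromosome 8 (mm10, 31814551 to 32884029, minus strand), was a transcript of tumour cells in the library labelled preSC_CracdKO and of few cells elsewhere. Its tumour-class level was 2.73 CPM (2.09 to 3.51) in RPR2, from 61 UMIs. In CRPR2 it was 2.32 CPM (1.78 to 2.98), from 62 UMIs. In the library labelled preSC_WT it was 3.76 CPM (3.34 to 4.22), from 294 UMIs. In the library labelled preSC_CracdKO it was 310 CPM (306 to 313), from 28741 UMIs, 82.4-fold the level of the library labelled preSC_WT (73.5 to 92.7). The first 3 libraries lay close together and the last stood apart. Tumour cells made up 94.7% of the kept cells of that library, in named clusters or not, and carried 98.3% of all Nrg1 UMIs in them. These shares were close, so the second is no measure of restriction to tumour cells. The unnamed allograft cluster 17 also had Nrg1 among its leading genes.

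**Figure D1:**
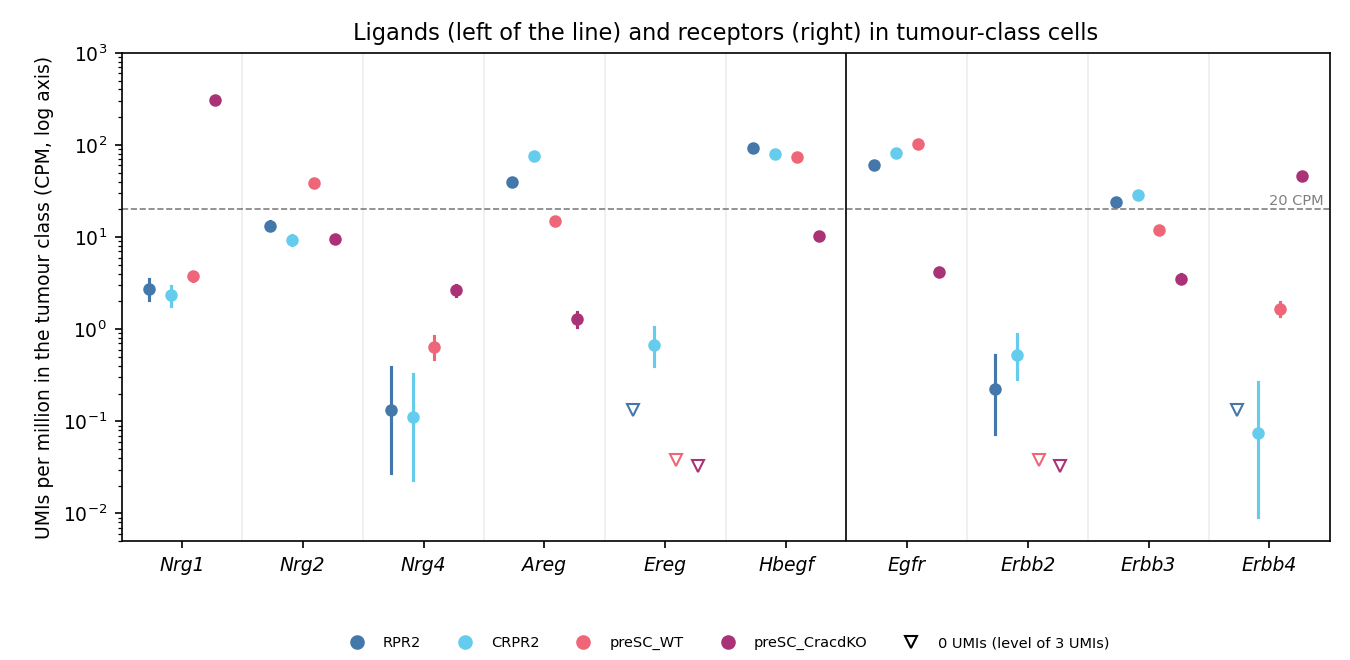
Level of each gene in tumour-class cells (CPM, log axis), 1 point per library with its exact Poisson interval, and an open triangle at the level of 3 UMIs where none was seen; the dashed line marks 20 CPM. Nrg1 and Erbb4 were highest in the library labelled preSC_CracdKO (310 and 45.4 CPM), where Egfr (4.15 CPM), Hbegf (10.2 CPM) and Areg (1.28 CPM) were lowest.

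The share of tumour cells with at least 1 Nrg1 UMI was 1.93% in RPR2, 0.864% in CRPR2, 1.64% in the library labelled preSC_WT and 53.0% in the library labelled preSC_CracdKO. After every cell was thinned to 1000 UMIs, which left out 88, 402, 301 and 127 shallower tumour cells in that order, the shares were 0.303%, 0.339%, 0.291% and 19.4%. T cell-like cells, which should lack the gene, gave a reading of the background. None of 4696 T cell-like cells in RPR2 held a Nrg1 UMI, which allows a share of up to 0.0639%, and none of 880 did in CRPR2, which allows up to 0.341%. In the libraries labelled preSC_WT and preSC_CracdKO, 1 of 1678 and 1 of 71 did (0.0596% and 1.41%). The median T cell-like cell held 1575, 1903, 1174 and 1218 UMIs in the same order of libraries, fewer than the tumour cells. Among tumour cells of the library labelled preSC_CracdKO, 13.9% held at least 5 Nrg1 UMIs and the highest held 63, whereas the highest cell elsewhere held 2 in RPR2 and in CRPR2 and 9 in the library labelled preSC_WT.

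Nrg1 was also present in every tumour cluster of the library labelled preSC_CracdKO, at levels that differed between clusters. The 6 tumour clusters with at least 50 cells there ranged from 106 CPM (100 to 113) in cluster 4 to 500 CPM (492 to 508) in cluster 1, with a median of 269 CPM. Nrg1 was itself among the 10 leading genes of clusters 1, 3, 9 and 11, so these levels partly restate how the clusters were formed. In the library labelled preSC_WT the highest of its own clusters was cluster 2, at 9.99 CPM (8.26 to 12.0), and the other large clusters lay between 1.38 and 5.09 CPM. The allograft libraries hardly mixed: 5 of 11 tumour clusters were held to at least 90% by the library labelled preSC_WT and 6 by the library labelled preSC_CracdKO. Of the cells labelled preSC_WT, 148 fell into clusters held by the other library, with 16 of the 294 Nrg1 UMIs, and 1 of them shared its barcode with a cell of that library.

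Nrg2 and Nrg4 did not follow Nrg1 in size. Nrg2, which likewise binds ErbB3 and ErbB4, stood in tumour cells at 13.3 CPM in RPR2, 9.25 CPM in CRPR2, 38.7 CPM in the library labelled preSC_WT and 9.51 CPM in the library labelled preSC_CracdKO. It was highest in the library labelled preSC_WT, and the allograft ratio ran opposite to that of Nrg1, 4.07-fold lower in the library labelled preSC_CracdKO (3.77 to 4.39). Nrg4, a ligand of ErbB4, had 3 UMIs in the tumour cells of RPR2 and 3 in those of CRPR2, for which no ratio is given. It had 50 UMIs (0.640 CPM) in the library labelled preSC_WT and 245 (2.64 CPM) in the library labelled preSC_CracdKO, a 4.13-fold difference at levels under 5 CPM.

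Areg and Hbegf, ligands of EGFR, were higher in tumour cells of both lung libraries and of the library labelled preSC_WT than in those of the library labelled preSC_CracdKO, and Ereg was nearly absent from tumour cells. Areg stood in tumour cells at 39.3 CPM (36.7 to 41.9) in RPR2, 75.0 CPM (71.8 to 78.4) in CRPR2, 15.0 CPM (14.1 to 15.9) in the library labelled preSC_WT, then 1.28 CPM (1.06 to 1.54) in the library labelled preSC_CracdKO. All intervals were apart. Hbegf stood at 93.7 CPM (89.7 to 97.8), 79.8 CPM (76.5 to 83.3), 74.2 CPM (72.3 to 76.1) and 10.2 CPM (9.53 to 10.8) in the same order, so that the first 3 libraries were alike in size and the library labelled preSC_CracdKO was 7.30-fold below the library labelled preSC_WT. Ereg had no UMI in the tumour cells of RPR2 or of either allograft, and 18 UMIs (0.674 CPM) in those of CRPR2. A level of up to 0.134 CPM in RPR2, 0.0384 CPM in the library labelled preSC_WT and 0.0323 CPM in the library labelled preSC_CracdKO would give 3 UMIs. Against that floor of 3 UMIs Ereg was at least 5.02-fold higher in CRPR2 than in RPR2, and the exact interval of the ratio began lower, at 3.68. Most Ereg UMIs of CRPR2 lay outside its tumour cells, in a cluster without a name described below and, with 71 UMIs, in fibroblast-like cells. The part of RNA from these other cells in the 18 UMIs was not tested.

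The receptors divided in the allografts. Egfr, on chromosome 11 (mm10, 16752203 to 16918158, plus strand), stood in tumour cells at 61.3 CPM (58.1 to 64.6) in RPR2, 81.7 CPM (78.3 to 85.2) in CRPR2 and 101 CPM (99.1 to 104) in the library labelled preSC_WT. It stood at 4.15 CPM (3.75 to 4.59) in the library labelled preSC_CracdKO, 24.4-fold below the library labelled preSC_WT. Erbb4, on chromosome 1 (mm10, 68032186 to 69108059, minus strand), overlaps 8 other annotated genes on its strand, so reads from these could not be told apart where exons coincide. It had no UMI in RPR2 and 2 in CRPR2. It stood at 1.65 CPM (1.38 to 1.96) in the library labelled preSC_WT, then 45.4 CPM (44.1 to 46.8) in the library labelled preSC_CracdKO, 27.5-fold higher (23.1 to 33.1). The library with the highest Nrg1 thus had the highest level of a neuregulin receptor and the lowest level of Egfr. Erbb3, the other neuregulin receptor, moved the other way, at 23.9 CPM in RPR2, 28.4 CPM in CRPR2, 11.9 CPM in the library labelled preSC_WT and 3.55 CPM in the library labelled preSC_CracdKO.

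Erbb2, the shared partner receptor, was not detected in the tumour cells of either allograft, with 0 UMIs in 12661 cells labelled preSC_WT and 0 in 14015 labelled preSC_CracdKO. These counts allow shares of cells with a UMI of up to 0.0237% and 0.0214%. The tumour cells of RPR2 held 5 Erbb2 UMIs and those of CRPR2 held 14. The gene was countable in the library labelled preSC_WT, where fibroblast-like cells held 18 UMIs (9.12 CPM). In the lung matrices club-like cells held 72 UMIs (25.4 CPM) in RPR2 and 202 (28.1 CPM) in CRPR2. In the library labelled preSC_CracdKO, T cell-like, B cell-like and macrophage-like cells held 0 UMIs as well, and only 8 cells were fibroblast-like. These classes therefore do not show that the gene was countable there.

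The region just upstream of the annotated start is shown for Egfr and Areg, which were both lower in the library labelled preSC_CracdKO, and for Erbb4, which was higher. The RefSeq promoter table (build GRCm38.p6) held 5 of the 10 genes, namely Egfr, Erbb2, Erbb4, Areg and Nrg4. Each sequence is the 250 bases before the start on the strand of the gene, at chr11:16751953-16752202 (plus) for Egfr, chr5:91139349-91139598 (plus) for Areg and chr1:69108060-69108309 (minus) for Erbb4. Capitals mark matches to 4 motifs searched on both strands: the GC box GGGCGG, the TATA box TATAAA, the cAMP response element TGACGTCA and the AP-1 site TGANTCA.
Egfr: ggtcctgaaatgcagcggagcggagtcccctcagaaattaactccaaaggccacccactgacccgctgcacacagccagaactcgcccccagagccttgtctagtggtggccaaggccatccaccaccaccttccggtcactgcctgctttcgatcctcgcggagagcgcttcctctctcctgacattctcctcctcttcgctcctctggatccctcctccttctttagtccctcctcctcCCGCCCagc
Areg: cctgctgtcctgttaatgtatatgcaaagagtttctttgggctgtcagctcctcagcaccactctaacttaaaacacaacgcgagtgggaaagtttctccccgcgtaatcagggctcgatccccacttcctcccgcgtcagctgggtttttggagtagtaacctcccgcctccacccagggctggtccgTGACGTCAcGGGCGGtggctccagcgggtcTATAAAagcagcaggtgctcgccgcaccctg
Erbb4: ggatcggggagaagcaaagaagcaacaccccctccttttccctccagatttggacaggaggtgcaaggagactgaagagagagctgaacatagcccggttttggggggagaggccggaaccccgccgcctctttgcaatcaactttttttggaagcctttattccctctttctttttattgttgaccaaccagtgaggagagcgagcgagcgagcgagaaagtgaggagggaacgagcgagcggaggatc
Areg held a cAMP response element (positions -61 to -54 from the start), a GC box (-52 to -47) and a TATA box (-31 to -26), none of which overlapped. Egfr held a GC box on the opposite strand (-9 to -4), and the Erbb4 window held none of the 4. Of 32851 promoter windows of the same length, 32.7% held a GC box, 12.4% a TATA box, 6.75% an AP-1 site and 1.55% the cAMP response element. A match describes the letters and is no evidence of binding.

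Counted by 1 rule, a ratio of 2 or more and 20 CPM or more in whichever library was higher, 1805 of 8154 genes (22.1%) differed between the tumour classes of the allografts, 592 higher in the library labelled preSC_CracdKO (7.26%) and 1213 lower (14.9%). Of the 10 growth factor and receptor genes, 5 reached 20 CPM and all 5 were past the ratio: Nrg1 and Erbb4 were higher and Nrg2, Hbegf and Egfr were lower. The choice of the genes used this comparison, so nothing is read from that count. Nrg4, Areg, Ereg, Erbb2 and Erbb3 stayed under 20 CPM in both libraries. The Areg ratio (11.7-fold lower) and the Erbb3 ratio (3.35-fold lower) therefore lay below the level required.

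The libraries differed in far more than these genes. The epithelial genes Epcam and Krt8 stood at 1729 and 1999 CPM in tumour cells labelled preSC_WT and at 37.8 and 14.5 CPM in those labelled preSC_CracdKO. The immediate early gene Fos differed in cells that were not tumour cells as well, at 778 CPM in T cell-like and 1310 CPM in B cell-like cells labelled preSC_WT against 52.6 and 34.8 CPM in those labelled preSC_CracdKO. Neutrophil-like cells labelled preSC_CracdKO, 75 in number, held Fos at 597 CPM. Markers of other classes also differed in the tumour cells. The 7 macrophage markers summed to 33.5 CPM in the library labelled preSC_WT and 10.4 CPM in the library labelled preSC_CracdKO. In the same order, the 6 fibroblast markers summed to 68.0 and 9.57 CPM and the 6 neutrophil markers to 330 and 6.31 CPM. The library labelled preSC_WT had only 5 neutrophil-like cells. Other sets were higher in the library labelled preSC_CracdKO: the 6 erythroid markers summed to 6.75 and 68.3 CPM, the 9 T cell markers to 8.44 and 18.6 CPM, and the 6 B cell markers to 1.77 and 17.8 CPM. Not all marker sets are given here. The part of these differences in the values of Egfr, Hbegf and Areg was not tested.

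1 cluster of the library labelled preSC_WT departed from the rest in its receptors. Cluster 14, with 570 cells of that library and 5 of the other, had Igfbpl1, Dcc, Nrxn3 and Cdkn1c among its leading genes. Its Erbb4 level was 30.01 CPM (24.7 to 36.1), against 0.0842 to 0.512 CPM in clusters 0, 2, 5 and 7 of the same library. It held 112 of the 129 Erbb4 UMIs of the tumour cells labelled preSC_WT. Its Egfr level was 11.8 CPM (8.57 to 15.8), against 93.0 to 115 CPM in clusters 0, 2, 5 and 7, and its Areg level was 2.41 CPM against 11.03 to 17.3 CPM. Nrg1, at 5.09 CPM (3.06 to 7.95), lay within the range of those clusters, and Cracd stood at 63.2 CPM against 2.22 to 8.54 CPM. Erbb4 in this cluster thus lay within the range of the clusters of the library labelled preSC_CracdKO. Egfr lay between the clusters of either library, above the 6.01 CPM that was highest there, and Nrg1 was far below that library. Without cluster 14, the Erbb4 ratio between the libraries was 199 (124 to 342) in place of 27.5, and the Nrg1 ratio was 83.9.

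**Figure D2:**
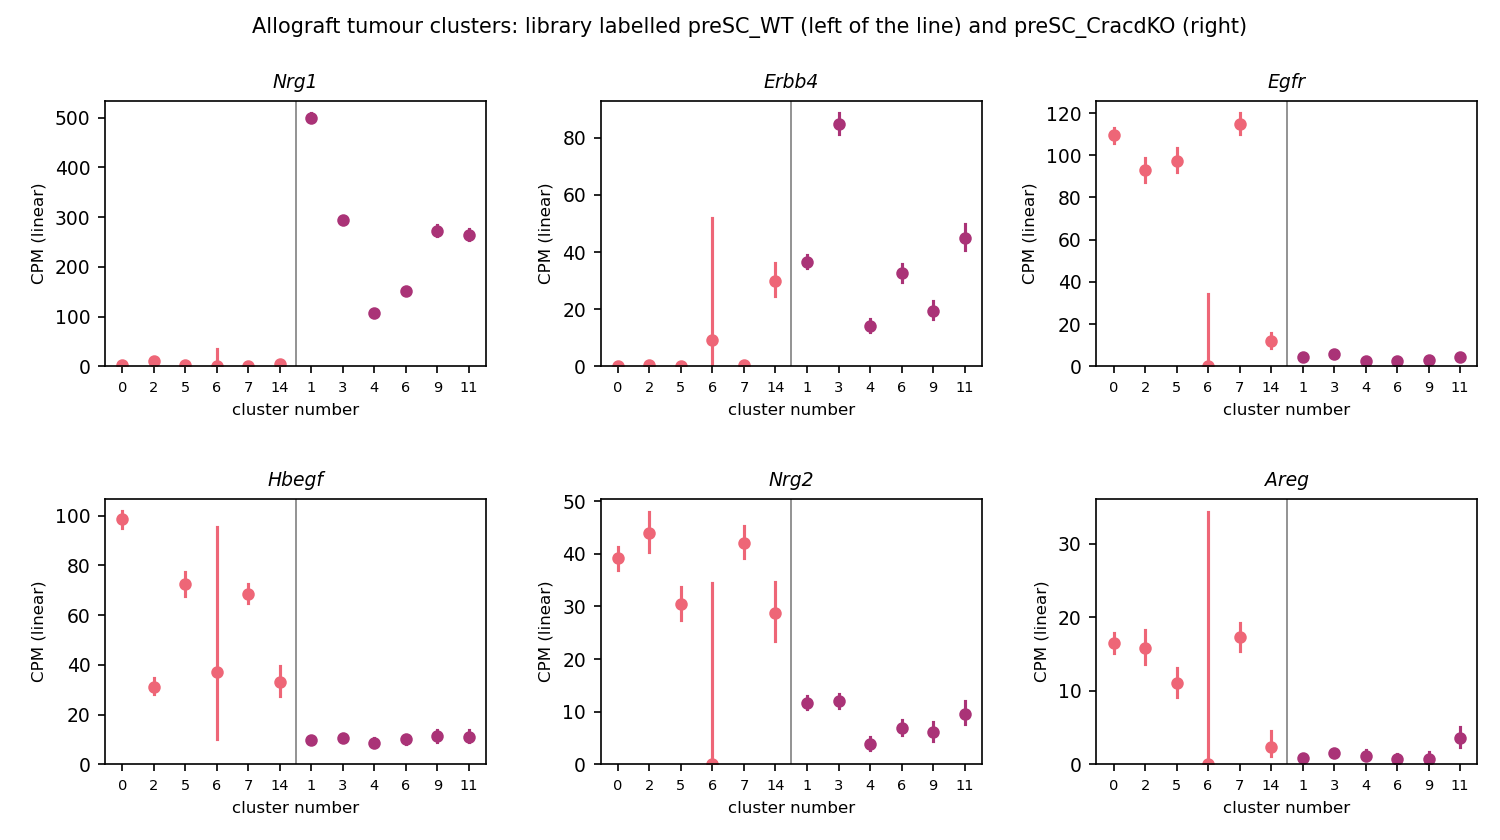
Levels of 6 genes in the allograft tumour clusters with at least 50 cells (CPM, linear axes from 0), as points with exact Poisson intervals, the library labelled preSC_WT left of the line and the library labelled preSC_CracdKO right. Cluster 14 had Erbb4 at 30.01 CPM and Egfr at 11.8 CPM but Nrg1 at 5.09 CPM; cluster 6 left of the line held only 60 cells, hence its wide intervals.

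Within the library labelled preSC_CracdKO, Nrg1 and Erbb4 did not peak in the same cluster. Erbb4 ranged from 14.1 CPM (12.0 to 16.6) in cluster 4 to 84.8 CPM (81.2 to 88.5) in cluster 3, a cluster led by histone genes of DNA replication in which Mki67 stood at 629 CPM. Cluster 1, with the highest Nrg1, had Erbb4 at 36.6 CPM (34.4 to 38.9) and Mki67 at 53.4 CPM. Egfr stayed between 2.28 and 6.01 CPM and Hbegf between 8.63 and 11.3 CPM in all 6 clusters. Cell by cell after thinning to 1000 UMIs, Erbb4 was detected in 4.41% of the 2700 cells with a Nrg1 UMI (3.66% to 5.25%) and in 3.56% of the 11188 cells without one (3.22% to 3.92%). The difference between these shares was not tested.

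Nrg1 could be set beside all other genes across the 27 units formed by a tumour cluster in 1 library. Among 10052 genes, the 5 most like it by Pearson's correlation of log2(CPM + 1) were Mcc (0.98), Bcl11a (0.97), Kcnt2 (0.97), Kctd8 (0.96) and Foxr2 (0.96). Bcl11a, a transcription factor, ranged from 74.7 to 140 CPM in the clusters of the library labelled preSC_CracdKO and stayed below 1 CPM in every other unit. Among the members the correlation with Nrg1 was 0.83 for Erbb4 and 0.89 for Nrg4, and it was -0.86 for Hbegf, -0.74 for Erbb3, -0.65 for Egfr and -0.61 for Areg. The genes most like Erbb4 were Grik2 (0.99) and Epha3 (0.98), and those most like Egfr were Klf5 (0.99) and Slc18a1 (0.98). Units of 1 library share its RNA and depth, so these values mostly describe the contrast between libraries.

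The lung tumours differed little. By the same rule 88 of 7200 genes (1.22%) differed between the tumour classes of CRPR2 and RPR2, 42 higher in CRPR2 (0.583%) and 46 lower (0.639%). None of the 10 did: 4 reached 20 CPM (Areg, Hbegf, Egfr and Erbb3) and 6 did not. The largest ratio among those 4 was that of Areg, 1.91-fold higher in CRPR2 (1.76 to 2.07), followed by Egfr (1.33-fold higher, 1.25 to 1.43), Erbb3 (1.19-fold higher, 1.06 to 1.33) and Hbegf (1.17-fold lower, 1.10 to 1.25). The Areg ratio of the summed class depended on cluster 8. Without that cluster Areg stood at 22.0 CPM in RPR2 and 22.6 CPM in CRPR2, a ratio of 1.03 (0.904 to 1.17), whereas the Egfr ratio was 1.35. The remaining clusters went both ways for Areg: the ratio was 1.30 in cluster 5, 1.68 in cluster 6 and 2.43 in cluster 16, but 0.671 in cluster 0. Nrg2 was 1.44-fold lower in CRPR2 (1.21 to 1.71), and Nrg1 had a ratio of 0.850 (0.587 to 1.23), which included 1. These intervals carry no error between animals. Markers of other classes differed in the same tumour cells: the 6 club markers summed to 117 CPM in RPR2 and 710 CPM in CRPR2, and the 6 erythroid markers to 1.57 and 527 CPM. Their part in the Areg and Egfr values was not tested.

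Clusters held by both lung libraries allowed the ratios to be read within like cells. Egfr was higher in CRPR2 in 7 of 7 such tumour clusters, and in 4 the interval of the ratio lay above 1. Nrg2 was lower in 7 of 7, with 2 intervals below 1, and Hbegf was lower in 5 of 7, with 3 below 1. Areg was higher in 6 of 7, with 4 intervals above 1. It was lower in cluster 0, with the interval below 1, at 30.8 CPM in RPR2 and 20.7 CPM in CRPR2. These clusters are parts of the same libraries and are no replicates.

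**Figure D3:**
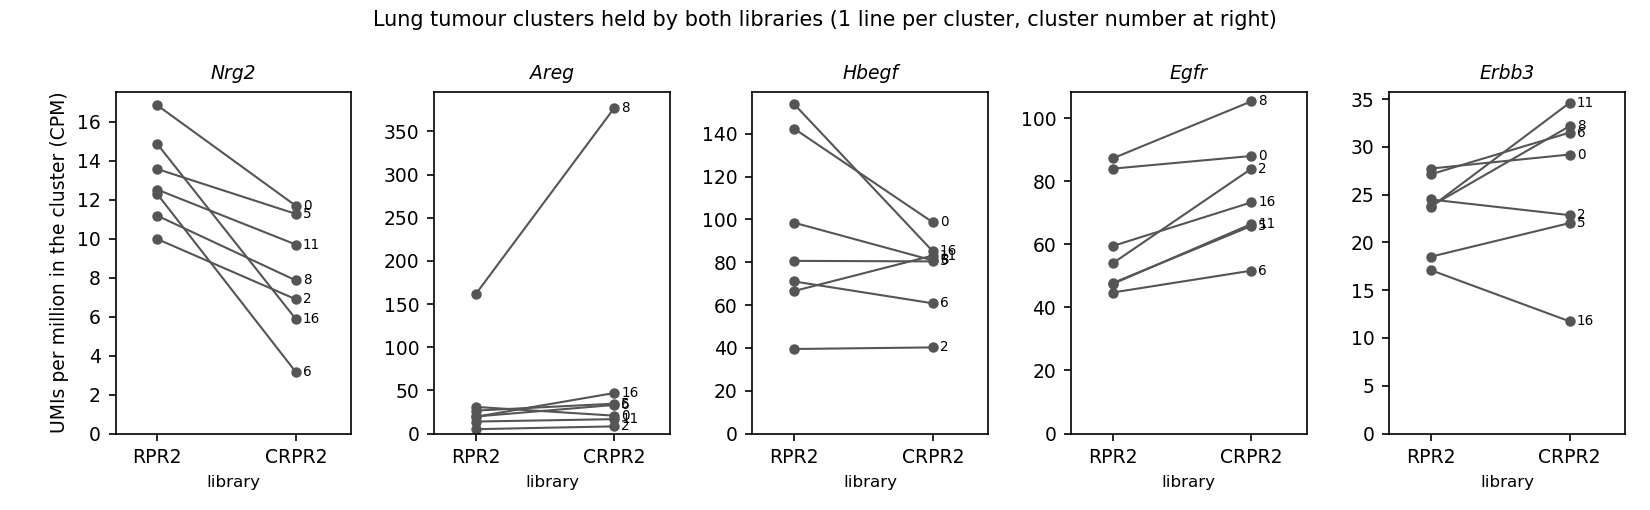
Levels of 5 genes in RPR2 and CRPR2 (CPM, linear axes from 0), 1 line for each of the 7 lung tumour clusters with cells of both libraries, numbered at the right. Egfr rose from left to right in all 7 clusters, and cluster 8 carried the highest Areg, at 161 CPM in RPR2 and 377 CPM in CRPR2.

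Areg in the lung tumours was concentrated in cluster 8, whose leading gene was Tph1, the enzyme that begins serotonin synthesis. There Areg stood at 161 CPM in RPR2, from 447 of the 877 tumour-class UMIs, and at 377 CPM in CRPR2, from 1489 of 2004, a ratio of 2.34 (2.10 to 2.61). In the other shared clusters it lay between 4.99 and 30.8 CPM in RPR2 and between 8.26 and 47.0 CPM in CRPR2. The same cluster had the highest Egfr of the clusters in each library, 87.3 and 105 CPM. After thinning, CRPR2 tumour cells with an Areg UMI held an Egfr UMI in 16.6% of cases (11.5% to 22.8%) and those without in 7.42% (6.77% to 8.11%). In RPR2 the shares were 12.7% (6.24% to 22.0%) and 5.68% (4.86% to 6.58%), with overlapping intervals. Single cells differed widely in Areg, with up to 110 UMIs in a tumour cell of RPR2 and 96 in CRPR2, although only 1.01% and 1.49% of tumour cells held 5 or more.

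A cluster without a name held much of the EGF-type ligand RNA of CRPR2. Cluster 12 of the lung tumours, with 502 cells of CRPR2 and 1 of RPR2, was led by Tm4sf1, Spp1 and S100a6, and its median cell held 13329 UMIs. It carried 4116 of 6928 Areg UMIs (59.4%), 373 of 489 Ereg UMIs (76.3%) and 2362 of 5240 Hbegf UMIs (45.1%). These totals cover all kept cells of CRPR2, in named clusters or not. Its levels were 430 CPM of Areg (417 to 443), 38.9 CPM of Ereg (35.1 to 43.1) and 247 CPM of Hbegf (237 to 257). Erbb2, at 9.40 CPM from 90 UMIs, was above the 0.524 CPM of the tumour class of CRPR2, whereas Egfr, at 9.19 CPM, was below its 81.7 CPM. Nrg2 had no UMI in it. Since RPR2 gave 1 such cell, cluster and library cannot be told apart. Areg and Ereg lie side by side on chromosome 5 (mm10, 91139599 to 91148432 and 91074622 to 91093646, both on the plus strand), 45953 bp apart with 0 annotated genes between them.

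Outside the tumour class, each gene had its own set of cells. Erbb2 and Erbb3 stood highest, of the lung classes, in club-like cells, an airway secretory type, with Erbb3 at 51.1 CPM in RPR2 and 51.5 CPM in CRPR2. Erbb4 in the lung tumours was found mostly in these cells, which held 8 of 11 UMIs in RPR2 and 37 of 40 in CRPR2. Fibroblast-like cells of CRPR2 carried Ereg at 60.3 CPM (47.1 to 76.1) and Hbegf at 153 CPM (131 to 177), and those of RPR2, only 45 cells, carried no Ereg UMI and Hbegf at 103 CPM (71.9 to 144). Fibroblast-like cells of the library labelled preSC_WT had Egfr at 404 CPM (377 to 433), above its tumour cells, and endothelial-like cells of that library had Hbegf at 111 CPM (91.1 to 133).

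Myeloid and T cell-like cells held ligand RNA as well. Monocyte-like cells held Nrg1 at 32.5 CPM (21.0 to 48.0) in RPR2 and 17.4 CPM (8.32 to 31.9) in CRPR2, from 25 and 10 UMIs, above the tumour cells of both libraries, and the intervals of these classes overlapped. They held Areg at 156 CPM (129 to 187) in RPR2 and 41.6 CPM (26.7 to 62.0) in CRPR2. Macrophage-like cells of the library labelled preSC_WT held Nrg1 at 23.3 CPM (17.4 to 30.5), above the 3.76 CPM of its tumour cells. Those of the library labelled preSC_CracdKO, 44 cells, held 82.7 CPM (46.3 to 136), from 15 UMIs, next to tumour cells at 310 CPM. Among T cell-like cells, Areg was concentrated in lung cluster 3, led by Ccl5, Il7r and Nkg7, at 67.5 CPM in RPR2 and 48.5 CPM in CRPR2. The thymocyte-type cluster 1 of RPR2, led by Rag1 and Dntt, held 2.27 CPM.

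Immune cells of the library labelled preSC_WT also carried RNA that tumour cells had at high levels. In the library labelled preSC_WT, Egfr stood at 21.9 CPM in T cell-like and 34.4 CPM in B cell-like cells, next to 101 CPM in tumour cells. Krt8, an epithelial keratin that these immune cells should lack, stood at 383 and 590 CPM in the same classes, next to 1999 CPM in tumour cells. Egfr, Nrg2 and Hbegf in T and B cell-like cells of this library, each below its tumour level, are therefore not read as expression. Areg in its T cell-like cells, at 42.1 CPM (34.9 to 50.3), was above the 15.0 CPM of its tumour cells.

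**Figure D4:**
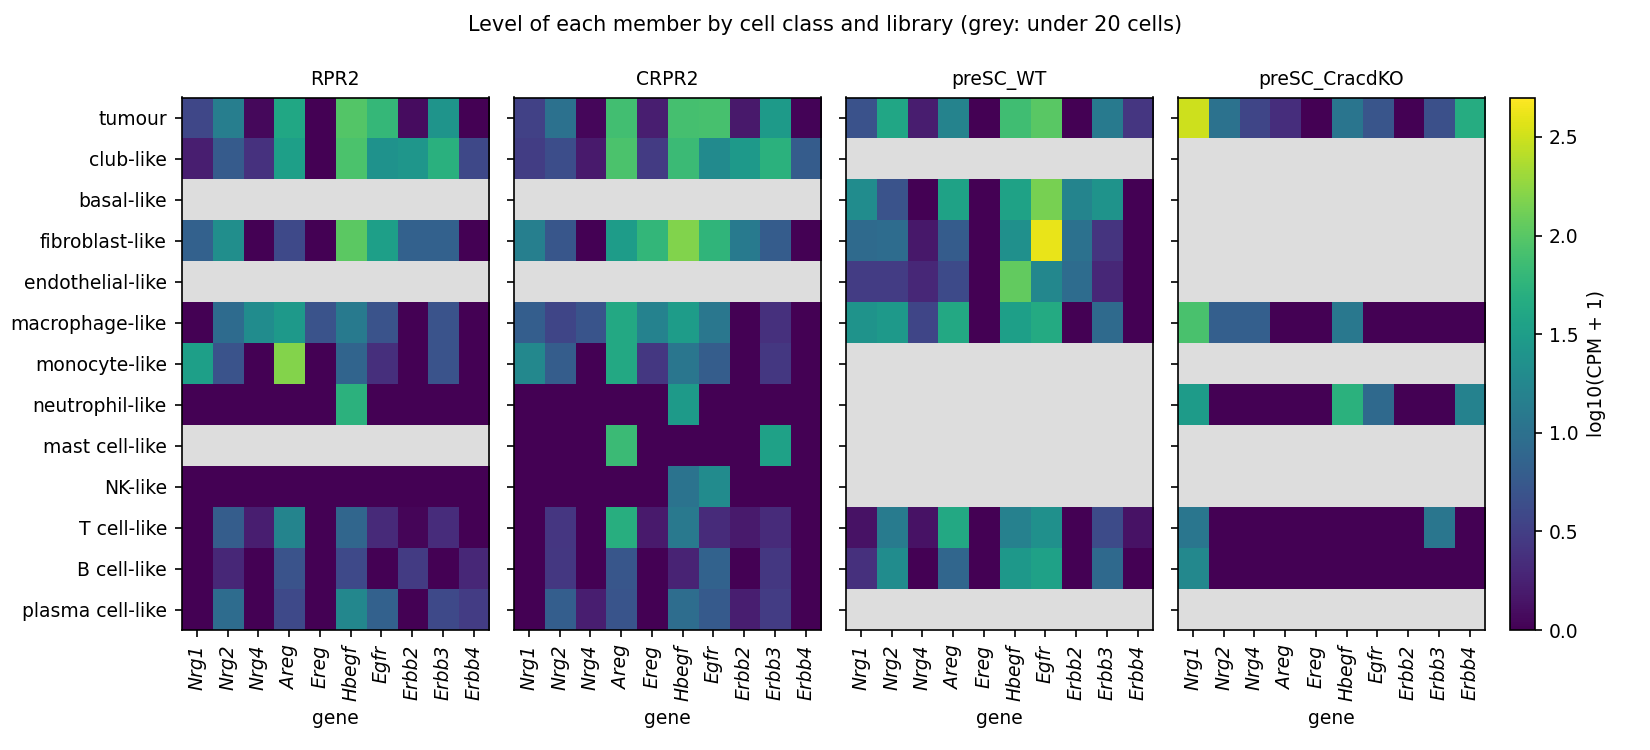
Level of each gene as log10(CPM + 1) by cell class (rows) and library (panels); grey marks classes with fewer than 20 cells, and clusters without a name are not drawn. Nrg1 is brightest in the tumour row of the panel labelled preSC_CracdKO (310 CPM), Egfr in the fibroblast-like row of the panel labelled preSC_WT (404 CPM), and Areg in the monocyte-like row of RPR2 (156 CPM).

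The rest of the pathway was read from a list of 39 other genes in 5 groups. In the allografts 23 of them reached 20 CPM, and 7 were lower, 0 higher and 16 within the ratio of 2, beside 14.9% of all genes lower and 7.26% higher. The median log2 ratio of the 23 was -0.34, and that of all 8154 genes was -0.15. In the lung tumours 20 reached 20 CPM and none was past the ratio, beside the 1.22% of all genes. The largest lung ratios at 5 CPM or more in the higher library were those of Lrig3, a member of the LRIG family (2.21-fold lower in CRPR2, 7.61 and 3.45 CPM), Btc, the EGF-type ligand betacellulin (1.66-fold higher, 4.34 and 7.19 CPM), Ier3, an immediate early gene (1.53-fold higher, 35.7 and 54.8 CPM), and Spry2, a Sprouty inhibitor (1.42-fold higher, 10.1 and 14.4 CPM).

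Among the 5 other ligands of the list, 1 reached 20 CPM in the allografts. Nrg3, a neuregulin for ErbB4, stood at 26.0 CPM in the library labelled preSC_WT and 36.9 CPM in the library labelled preSC_CracdKO, and had no UMI in the tumour cells of RPR2 or CRPR2. Of the 5 sheddases and carriers, the proteins that release ligands from the cell surface, 3 reached 20 CPM and none was past the ratio. Adam10 stood at 108 and 71.4 CPM, and Adam17 at 30.7 and 21.5 CPM. Of the 11 adaptors, 10 reached 20 CPM and 2 were lower in the library labelled preSC_CracdKO: Pik3r3, a PI3K regulatory subunit (22.2 and 6.70 CPM), and Akt1, a kinase of that branch (42.3 and 18.4 CPM). The carriers Grb2, Sos1 and Ptpn11 stayed within the ratio.

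Inhibitors and ERK-induced genes were read in the same way. Of 7 inhibitors, 5 reached 20 CPM and 2 were lower in the library labelled preSC_CracdKO. Errfi1, an inhibitor that binds the EGFR kinase, stood at 73.3 CPM in the library labelled preSC_WT and 7.17 CPM in the library labelled preSC_CracdKO, and Lrig1, which promotes receptor degradation, at 26.5 and 12.0 CPM. Of 11 ERK-induced genes, 4 reached 20 CPM, 3 were lower and Spred2, at 40.1 and 77.0 CPM, was within the ratio. Below 20 CPM, and named after its value was seen, Spred1, an inhibitor of RAS-ERK signalling, stood at 0.166 CPM in the library labelled preSC_WT and 8.47 CPM in the library labelled preSC_CracdKO, 51.0-fold higher (29.6 to 96.1). The 3 that were lower were Dusp4 (21.9 and 2.99 CPM), Dusp6 (48.9 and 3.07 CPM), both phosphatases of ERK-type kinases, and Egr1, an immediate early transcription factor (1644 and 20.7 CPM). In RPR2 and CRPR2 the same genes stood at 21.7 and 23.9, 59.0 and 51.9, and 1799 and 2282 CPM.

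**Figure D5:**
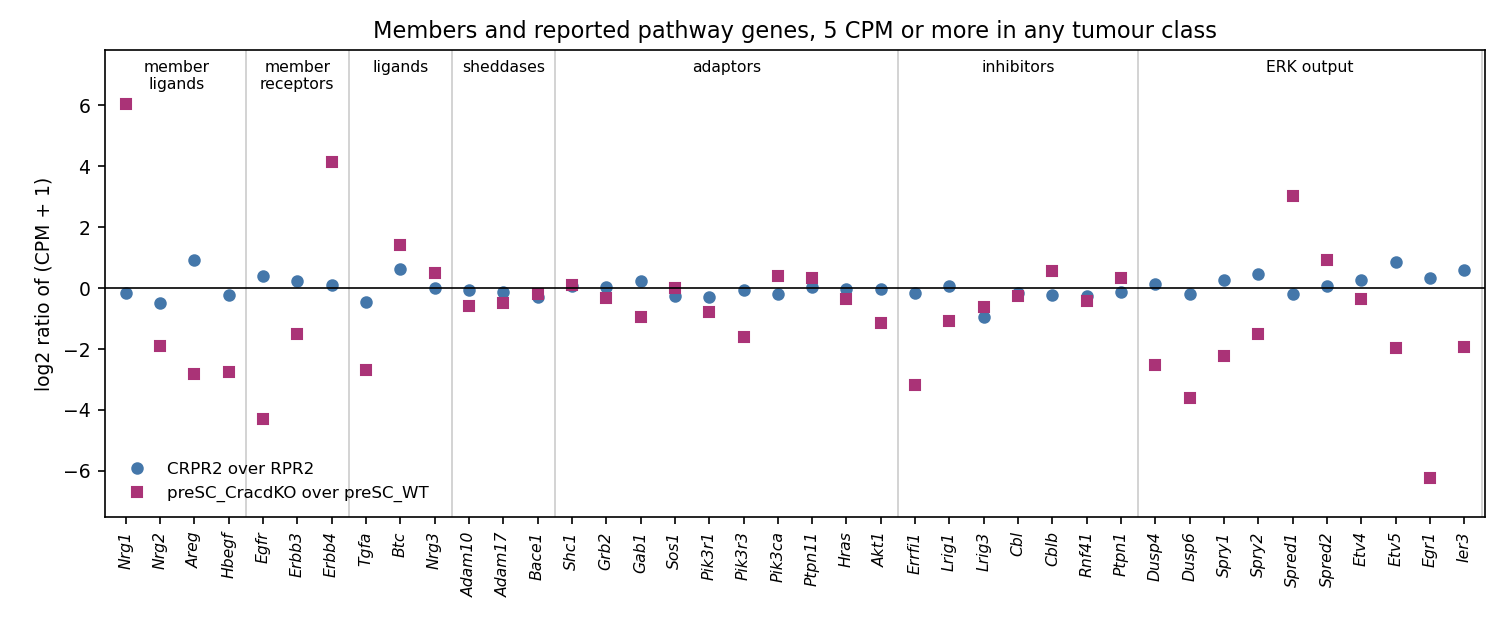
Log2 ratio of (CPM + 1) in tumour cells for the members and listed pathway genes that reached 5 CPM in any library, apart from genes not reported here, circles for CRPR2 over RPR2 and squares for the library labelled preSC_CracdKO over the library labelled preSC_WT, grouped by role. The circles lie near 0, and the squares of Nrg1 and Erbb4 lie far above it while those of Egfr, Errfi1, Dusp6 and Egr1 lie far below.

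Egr1 differed beyond the tumour cells, as Fos did. It stood at 375 CPM in T cell-like, 700 CPM in B cell-like and 757 CPM in macrophage-like cells labelled preSC_WT, against 63.1, 17.4 and 44.1 CPM in those labelled preSC_CracdKO, whereas neutrophil-like cells labelled preSC_CracdKO held 354 CPM. In cluster 14 of the library labelled preSC_WT, where Egfr was low, Egr1 stood at 97.8 CPM and Dusp6 at 15.3 CPM, against 850 to 2030 and 31.5 to 59.9 CPM in clusters 0, 2, 5 and 7. The part of the immediate early genes in the values of Egfr, Hbegf and Areg was not tested.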

How the data were processed

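The authors deposited raw UMI counts, whole numbers for each gene and barcode, that were not normalized. Per the file headers they were written by Cell Ranger 6.1.2 (lung tumours) and 5.0.0 (allografts), and the submitters' processing notes name mm10. No source used here gives the annotation release or says whether intronic reads were counted. The lung matrices listed 32285 genes and the allograft matrices 31053, with 30406 identifiers in both. Levels set side by side between lung and allograft libraries therefore rest on different gene lists, and the effect of this was not tested. The members and all lists were chosen with earlier results of these data known.

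The matrices held 9215, 12164, 18559 and 16282 barcodes and 42592323, 61917754, 93376185 and 110576113 UMIs in RPR2, CRPR2 and the libraries labelled preSC_WT and preSC_CracdKO. Filters removed cells under 300 genes or over 15% mitochondrial UMIs. Scrublet (scanpy 1.11.5, expected doublet rate 0.1) removed 271, 404 and 1335 doublets in RPR2, preSC_WT and preSC_CracdKO. Its automatic threshold marked 0 cells in CRPR2, where the top scores were removed at 0.8% per 1000 barcodes (1164 cells). This left 8857, 10798, 18064 and 14802 cells.

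Each pair was clustered by itself (2000 variable genes, 50 components, 15 neighbours, Leiden resolution 1.0, seed 1, no integration). Clusters were named from the mean log2 ratio of listed markers, by a rule set after the clusters were seen. Classes other than tumour were named first, against the median cluster, at a mean of at least 2. Remaining clusters were called tumour against the median of the named clusters, at a mean of at least 0.5. At least 3 raised markers were required, each in 20% of cells, or in 5% for the tumour class. In the end 1 lung and 5 allograft clusters stayed unnamed. UMIs were summed per class and library and divided by all UMIs of the class to give CPM. Intervals are exact Poisson (levels), conditional binomial (ratios) and Clopper-Pearson (shares). Genes with a 2-fold ratio and 20 CPM on the higher side counted as different. All 10 members were named, together with the listed pathway genes past that rule or, where fewer than 4 were, the 4 with the largest ratio, and the 5 genes most like Nrg1; Cracd, Epcam, Krt8, Fos, Mki67 and the genes most like Erbb4 and Egfr were chosen after their values were seen. Some listed genes are counted in their lists but not reported here by name. Gene positions are from GENCODE on mm10. The rule of a 2-fold ratio and 20 CPM was tested on simulated counts with known ratios, and the other steps were not. Alternatives were doublets kept, other cell filters, Leiden resolution 0.5, all barcodes, equal weight per cell, other thresholds, edgeR 4.0.16 TMM factors, thinning and, added after the data were seen, leaving out allograft cluster 14 or lung cluster 8.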

Additional observations from a re-analysis of the deposited data

Results flagged for a closer look

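As labelled, Egfr ran in opposite directions in the 2 pairs of libraries. Its tumour-class level in the library labelled preSC_CracdKO was 0.0410 times that in the library labelled preSC_WT, whereas its level in CRPR2 was 1.33 times that in RPR2. The opposition depends on the allograft labels, against which Cracd RNA went: with the labels turned, the allograft ratio would be 24.4, in the same direction as in the lung tumours. The lung labels do not say which alleles set CRPR2 apart from RPR2, and Cracd RNA stood at 23.6 CPM in CRPR2 and 31.6 CPM in RPR2. Whether both pairs compare the same change is therefore not known from the labels. The difference between these ratios was not tested, since each group held 1 library.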

How the results depend on the processing

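No paired analysis was possible because each group held 1 library, and none could be left out. Of 105 alternative values of the members' ratios, 94 lay within the counting interval of the reported value, 10 lay outside it and 1 reversed. Over all deposited barcodes, with no filter or class, Hbegf was 1.66 times as high in CRPR2 as in RPR2, against 0.852 in tumour cells. There Areg was 3.86-fold higher, against 1.91, and Nrg1, whose interval in tumour cells included 1, had a ratio of 1.35 against 0.850. Without allograft cluster 14 the Erbb4 ratio was 199, against 27.5, and without lung cluster 8 the Areg ratio was 1.03. The Nrg1 share of tumour cells moved with thinning to 1000 UMIs (0.303%, 0.339%, 0.291% and 19.4%) and, in the library labelled preSC_CracdKO, with doublets kept (54.5%). Counts of all genes in the lung pair were 261 higher and 297 lower over all barcodes, 102 and 158 with 5 CPM required and 153 and 162 at a ratio of 1.5. In the allograft pair they were 1120 and 1861 with 5 CPM required and 1244 and 2179 at a ratio of 1.5. Of the members, 1 was higher in CRPR2 (Areg) over all barcodes and 1 at a ratio of 1.5, and 5 were lower in the library labelled preSC_CracdKO with 5 CPM required. The causes were not tested. Levels by class stayed within their intervals in 815 of 860 alternatives. Values under 3 UMIs are uncertain. For Erbb2 and Ereg in the allograft tumour cells, where no UMI was seen, only the level or share that 3 counts would make is given.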
